A study of Mus musculus with 12 samples.

Results

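The 7 genes described here encode G protein-coupled receptors and were followed in RNA-seq of sorted mouse iNKT1 cells, the T-bet-dependent subset of invariant natural killer T cells that recognise lipid antigens on CD1d. They are Lpar6, Gpr132, Gpr183, Gpr174, P2ry10, Gpr34 and Gpr65, brought together because their known or reported ligands are lysophospholipids, oxysterols or related lipids, or because they belong to a receptor family reported to bind them. All 7 were among the 14004 genes of the table, and all 7 passed the filter on low values that left 13058 genes for testing. The set was assembled because Lpar6 was lower in Ets1-deleted cells of both tissues and Gpr132 was lower in Ets1-deleted liver cells. For the members the comparison of genotypes is therefore a description with no test, while the average difference between liver and thymus was not used to pick them and was tested.

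Cells were CD1d-tetramer-positive and YFP-positive, and came from liver or thymus. The cKO groups carried Tbx21Cre, Rosa26-YFP+ and Ets1F/F, and the control groups carried Tbx21Cre and Rosa26-YFP+ without the Ets1F/F alleles, so the Cre and the reporter were present in every library. Cre is driven here from Tbx21, the gene of T-bet, and the sort for YFP takes cells in which it has acted. There were 3 libraries in each of the 4 groups (cKO liver, control liver, cKO thymus and control thymus), 12 in all. They are described as independent replicates, without a statement that each came from its own mouse and without an age, so p-values measure the spread between libraries. Levels are given as the deposited value, a read number adjusted to a common library size, and fold changes are on the log2(value + 1) scale from limma, each with its standard error (SE).

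Lysophospholipids are membrane lipids that have lost an acyl chain, and several act as extracellular messengers. Lysophosphatidic acid and lysophosphatidylserine bind receptors that couple to G proteins of the G12/13, Gi, Gq or Gs classes, through which they alter cell shape, migration and cyclic AMP. Oxysterols are oxidised cholesterols, and one of them guides lymphocytes and dendritic cells within lymphoid organs through Gpr183. In T cells, receptors of this kind are known mainly for positioning cells and restraining activation.

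LPAR6 is a lysophosphatidic acid receptor, known in humans also as a gene of hair growth. Lpar6 lies on the plus strand at chr14:73237895-73243294 (GRCm38, gene models of GENCODE M21), inside the retinoblastoma gene Rb1 on the opposite strand, which shares 408 of its exon bases (7.56%). Gpr132 (chr12:112850873-112868228, minus strand) responds to oxidised fatty acids and has been reported to respond to lysophosphatidylcholine. Gpr65 (chr12:98268635-98276644, plus strand), also called TDAG8, is a proton sensor that raises cyclic AMP and has been reported to bind the lysolipid psychosine. An annotated antisense transcript shares 511 of its exon bases (24.7%). Gpr34 (chrX:13632089-13640858), Gpr174 (chrX:107255878-107296769) and P2ry10 (chrX:107088492-107104974), all on the plus strand, encode receptors for lysophosphatidylserine. P2ry10 and Gpr174 are neighbours within 208.3 kb of the X chromosome, with their relative P2ry10b as the only protein-coding gene between them. Gpr183 (chr14:121952551-121965195, minus strand), also called EBI2, is the oxysterol receptor of the set. Whether reads were counted by strand, and how reads shared between relatives were treated, is unstated in the labels, so Lpar6 with Rb1, Gpr65 with its antisense transcript and P2ry10 with P2ry10b are uncertain where they share sequence.

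The deleted factor, Ets1, binds DNA at a core of GGAA, so the 250 bases before the RefSeq transcript start (GRCm38.p6) are shown for the 3 members that differed most between cKO and control liver cells. They are written 5′ to 3′ on the strand of the gene, with each GGAA and its reverse complement TTCC in capitals. The windows are chr14:73237641-73237890 for Lpar6, chr12:112860917-112861166 for Gpr132 and chr12:98268385-98268634 for Gpr65. The Gpr132 window lies inside the GENCODE gene model given above, downstream of its outermost annotated start.

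Lpar6: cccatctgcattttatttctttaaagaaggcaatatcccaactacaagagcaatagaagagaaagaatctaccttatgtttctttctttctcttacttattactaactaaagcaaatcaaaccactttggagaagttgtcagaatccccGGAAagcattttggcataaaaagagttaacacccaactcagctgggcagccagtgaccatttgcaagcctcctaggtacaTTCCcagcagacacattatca
Gpr132: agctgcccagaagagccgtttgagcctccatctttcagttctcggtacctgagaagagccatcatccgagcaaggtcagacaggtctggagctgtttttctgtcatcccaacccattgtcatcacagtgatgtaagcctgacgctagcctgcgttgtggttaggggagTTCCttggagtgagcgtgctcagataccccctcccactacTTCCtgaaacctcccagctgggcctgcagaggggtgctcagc
Gpr65: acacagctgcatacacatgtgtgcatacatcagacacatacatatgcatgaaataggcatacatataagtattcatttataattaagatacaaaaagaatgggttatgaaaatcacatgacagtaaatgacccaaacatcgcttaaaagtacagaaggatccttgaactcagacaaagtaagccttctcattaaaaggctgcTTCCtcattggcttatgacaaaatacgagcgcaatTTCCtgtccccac

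Of the 7 members, 6 had an entry and Gpr34 did not, and P2ry10 had 2 windows. Like that of Gpr132, the Gpr174 window and the second P2ry10 window lie inside their GENCODE gene models. GGAA on either strand was present in all 7 windows, and in 93.4% of the 32851 windows of all genes. The longer form GGAAGT was found on the antisense strand of the Gpr132 window, 44 bases before the start, of the Gpr183 window (66 bases) and of the second P2ry10 window (31 bases), and it was found on either strand of 19.7% of all windows. CGGAAG was found in none of the 7 windows and in 13.6% of all windows. CGGAAG and GGAAGT both contain GGAA and can overlap each other. A match is a string of letters and was not tested for binding.

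Ets1 itself was read out in every library. It stood at 3594, 4425 and 5787 in cKO liver and at 18773, 18528 and 15910.2 in control liver. In thymus it stood at 11817, 7069 and 5788 in cKO cells and at 23692, 28051 and 19493 in control cells. Every cKO library lay below every control library of its tissue, with log2 fold changes of -1.97 ± 0.27 in liver (limma adjusted p = 0.0012) and -1.58 ± 0.27 in thymus (adjusted p = 0.0095). The thymus call was kept in 23 of 27 alternatives, with an adjusted p of 0.071 without cKO thymus library 3. The labels do not say which exons the floxed allele removes, and the value covers the whole gene. The 12 iNKT1 markers checked, Tbx21, Zbtb16, Il2rb and Klrb1c among them, had reads in all 4 groups. Depth was 18487054 to 43435756 recovered reads in 10 libraries, but only 3205444 in the second cKO liver library and 3867392 in the third one of control liver. In the 2 shallow libraries 1 read was worth 6.66 and 6.06 of the deposited value.

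Between the genotypes the 7 receptors divided. In both tissues Lpar6 and Gpr132 were lower in cKO cells, with no overlap of libraries, and the deposited values of Gpr65 were higher in both. Gpr174 and P2ry10 were lower without overlap in cKO liver, and Gpr183 in cKO thymus. Gpr34 had a higher mean in cKO cells of both tissues, with overlapping libraries.

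Lpar6, the lysophosphatidic acid receptor, had the same direction and a similar size of difference in both tissues. Its values were 1976, 1400.5 and 1949 in cKO liver and 8467, 6714 and 6274 in control liver. In thymus they were 2777, 4047 and 2636 in cKO cells and 9817, 13468 and 9496 in control cells. No cKO library overlapped a control library of either tissue, and the highest cKO value anywhere was below the lowest control value anywhere. The mean level in cKO cells was 24.8% of the control level in liver (1775 ± 325 against 7152 ± 1160, SD, n = 3 each) and 28.9% in thymus (3153 ± 777 against 10927 ± 2206). These are log2 fold changes of -2.02 ± 0.31 in liver and -1.80 ± 0.31 in thymus, which differ by -0.21 ± 0.43. Even in the shallow cKO liver library 2 the gene had 210 reads. The groups ran from control thymus through control liver and cKO thymus to cKO liver, and the libraries of each neighbouring pair in that order did not overlap. Rb1, whose exons overlap those of Lpar6, had log2 fold changes with the opposite sign, 0.42 ± 0.44 in liver and 0.72 ± 0.44 in thymus, and passed the test in neither (limma adjusted p = 0.999 and 0.50).

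**Figure D1:**
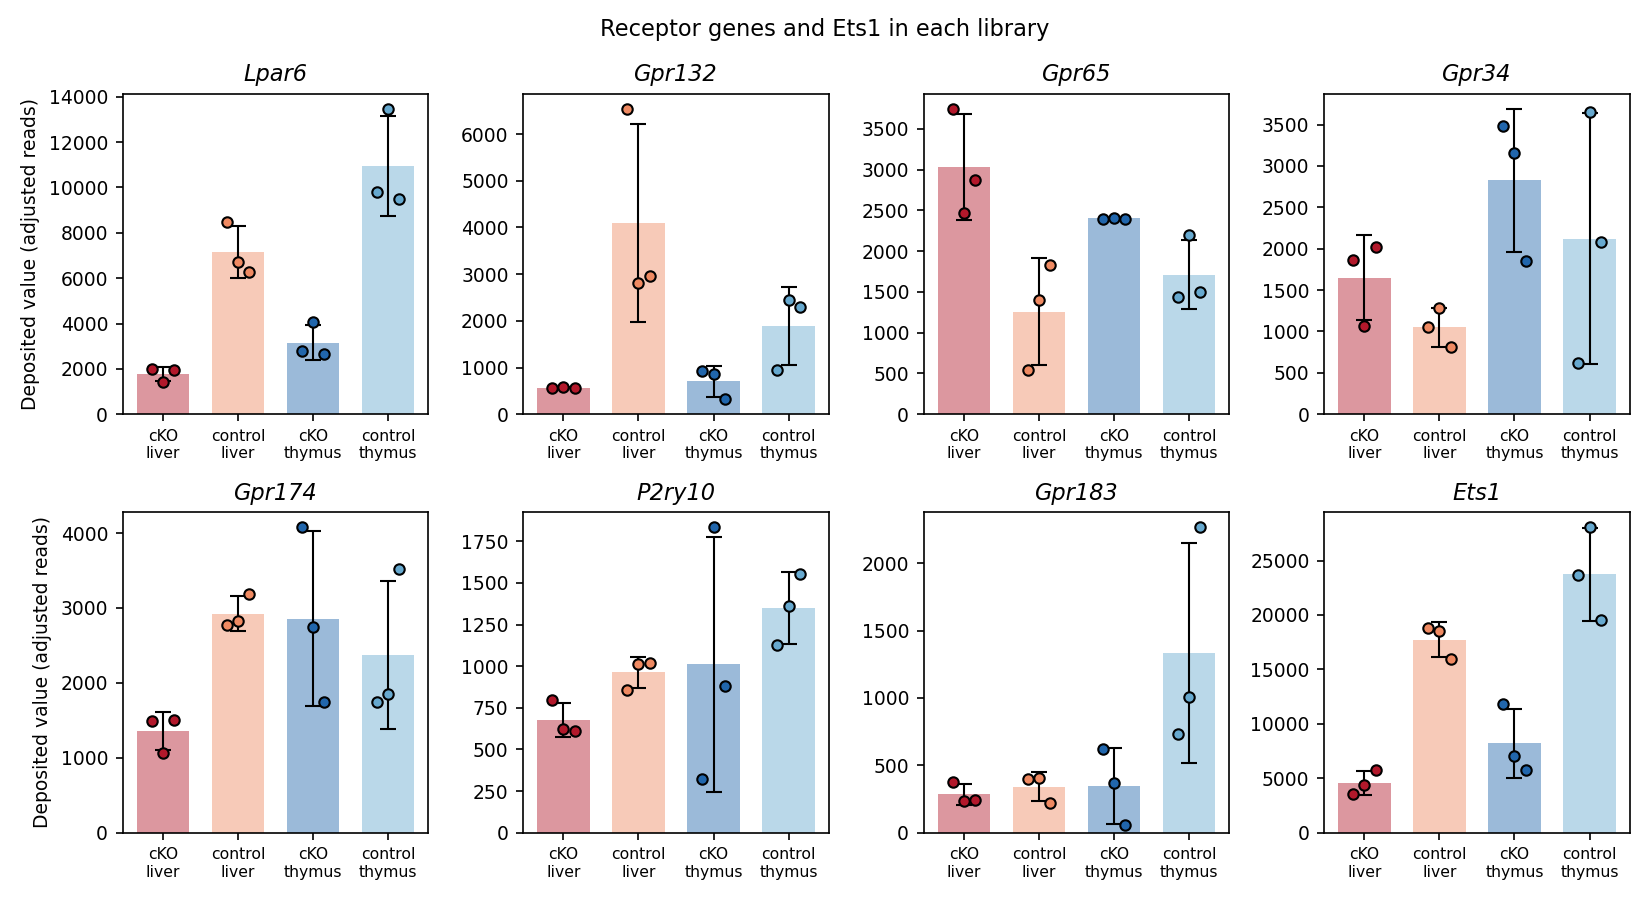
Deposited values (adjusted reads, linear axis from 0) of the 7 receptor genes and Ets1 in the 12 libraries; bars are group means, error bars SD (n = 3), points single libraries. Lpar6 and Ets1 sat below control in every cKO library of both tissues, and Gpr65 sat above control in every cKO library of both tissues.

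Gpr132, the receptor for oxidised fatty acids, was at 561, 574 and 562 in cKO liver and at 6540.4, 2800.4 and 2955 in control liver. The cKO liver libraries were nearly identical and far below control, and library 1 stood well above the other 2 control liver libraries. In thymus the values were 919.8, 867 and 330.0 in cKO cells and 937, 2443 and 2286 in control cells. The thymus groups did not overlap, but the highest cKO library and the lowest control library nearly touched. The mean cKO level was 13.8% of the control level in liver (566 ± 7.26 against 4098 ± 2116, SD, n = 3 each) and 37.4% in thymus (706 ± 326 against 1889 ± 828). The log2 fold changes were -2.74 ± 0.55 in liver and -1.44 ± 0.55 in thymus, a difference of -1.30 ± 0.78. In the order control liver, control thymus, cKO thymus and cKO liver, the last pair overlapped and the other neighbouring pairs did not.

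Gpr65, the proton sensor, went the other way from Lpar6 and Gpr132. It stood at 3746, 2472 and 2869.9 in cKO liver and at 539, 1399.7 and 1829.8 in control liver. Thymus libraries held 2400.0, 2409 and 2396 in cKO cells and 1437, 2199 and 1499 in control cells. As deposited, all cKO libraries lay above all control libraries of the same tissue, and the cKO thymus libraries were nearly identical. In thymus the lowest cKO and the highest control library lay close (2396 and 2199). Whether they stay apart under another scaling was not tested. Mean levels were 2.41 times control in cKO liver (3029 ± 652 against 1256 ± 657, SD, n = 3 each) and 1.40 times control in cKO thymus (2402 ± 6.61 against 1712 ± 423). The log2 fold change was 1.42 ± 0.45 in liver, 0.90 without control liver library 1, and 0.52 ± 0.45 in thymus. Under TMM scaling, another adjustment for library size, the thymus value was 0.25, beside a median of all genes of 0.0031. As deposited, the thymus value of 0.52 stood beside a median of 0.24. From cKO liver down through cKO thymus and control thymus to control liver, only the last neighbouring pair overlapped.

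The 3 lysophosphatidylserine receptors of the set did not move as a block. Gpr174 stood at 1495, 1061 and 1509 in cKO liver and at 2766, 2820.1 and 3191 in control liver, without overlap. Its thymus values were 4077, 2742 and 1749.9 in cKO cells and 1744, 1855 and 3517 in control cells, and these overlapped widely. The log2 fold change was -1.13 ± 0.42 in liver and 0.26 ± 0.42 in thymus, and the thymus value became -0.04 without cKO thymus library 1, with the difference between the tissues at -1.39 ± 0.59. Cells of cKO liver were the low group for Gpr174, and the libraries of the other 3 groups overlapped.

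P2ry10 had values of 794, 621 and 614 in cKO liver and of 854, 1016 and 1018 in control liver, which did not overlap but lay close. Thymus libraries were at 320.3, 1834 and 879 in cKO cells and at 1126, 1361 and 1557 in control cells. The cKO thymus libraries spanned the whole range of the control ones. Log2 fold changes were -0.51 ± 0.60 in liver and -0.73 ± 0.60 in thymus, and the thymus value was -0.07 without cKO thymus library 1. Its neighbour and relative P2ry10b was at 72.5 ± 55.6 in cKO liver against 276 ± 120 in control liver, and at 327 ± 191 in cKO thymus against 433 ± 368 in control thymus (SD, n = 3 each).

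Gpr34 was at 1867, 1067 and 2021 in cKO liver and at 1053, 1289 and 813 in control liver. In thymus it was at 3481, 3153 and 1850.2 in cKO cells and at 623, 3654 and 2083 in control cells. Both pairs of groups overlapped, and control thymus library 1 was the lowest of all 12. The log2 fold changes, 0.62 ± 0.56 in liver and 0.70 ± 0.56 in thymus, had the opposite sign to those of P2ry10, and the thymus value became -0.02 without control thymus library 1. Summed per kb of exon, the 3 lysophosphatidylserine receptors of the set came to 1268 ± 306 in cKO liver against 1368 ± 97.4 in control liver, and to 2221 ± 623 in cKO thymus against 1906 ± 808 in control thymus (SD, n = 3 each). P2ry10b is not part of this sum.

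Gpr183, the oxysterol receptor, was low in liver cells of both genotypes, with 375, 234 and 243 in cKO liver and 399, 407 and 219 in control liver. Thymus values were 620.0, 368 and 59.6 in cKO cells and 733, 1007 and 2266 in control cells. Liver groups overlapped and thymus groups did not, with a wide spread within both thymus groups. The log2 fold change was -0.25 ± 0.88 in liver and -2.31 ± 0.88 in thymus, a difference of 2.06 ± 1.25. Without cKO thymus library 3 the thymus value was -1.31 and the difference 1.07. Control thymus was thus the high group, and the other 3 groups overlapped one another.

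**Figure D2:**
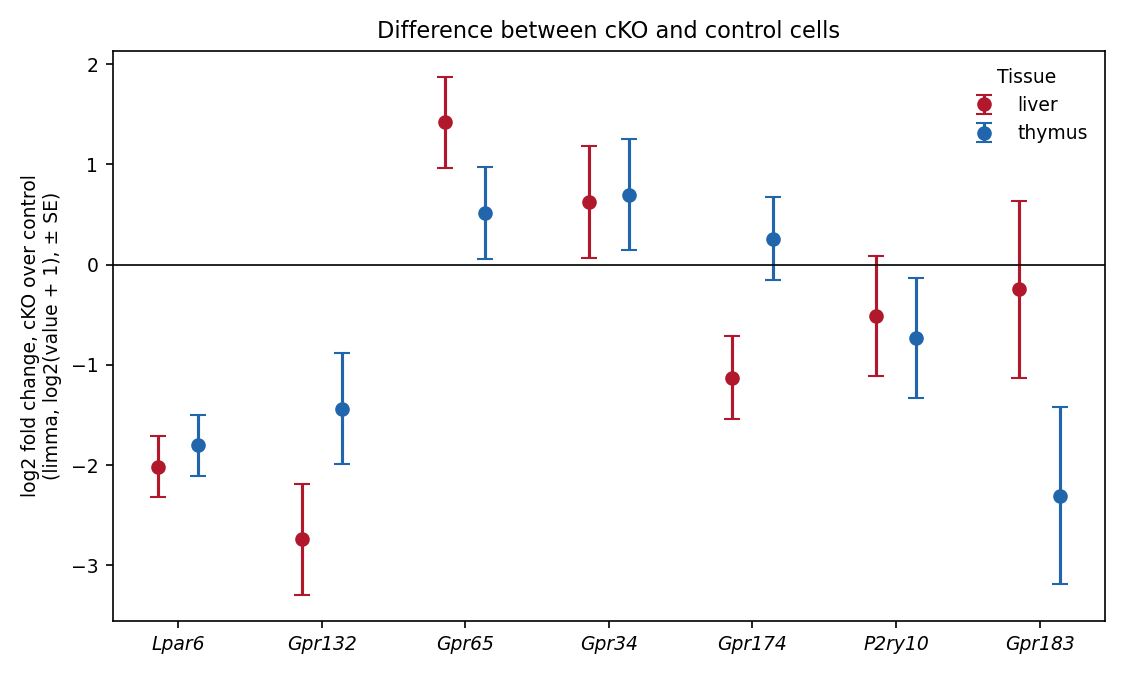
Log2 fold change, cKO over control, of each receptor gene in liver and in thymus (limma on log2(value + 1), ± SE, 3 libraries a group). Lpar6 (-2.02 in liver and -1.80 in thymus) and Gpr132 (-2.74 and -1.44) lie below 0, Gpr65 (1.42 and 0.52) and Gpr34 (0.62 and 0.70) above, while Gpr174 and Gpr183 lie near 0 in one tissue (0.26 in thymus and -0.25 in liver) and below it in the other (-1.13 in liver and -2.31 in thymus).

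Counted over the set in liver, 2 of 7 members were called lower at a Benjamini-Hochberg adjusted p under 0.05 (Lpar6 and Gpr132) and none higher, where 0.505% of the 13058 genes tested were called in either direction and 0.191% lower. Libraries did not overlap for 5 of 7 members, 4 lower and Gpr65 higher, where this held for 18.6% of genes (8.66% lower and 9.99% higher). In thymus 1 of 7 was called lower (Lpar6), where 0.636% of all genes were called in either direction and 0.322% lower, and the call ended without cKO thymus library 3. Thymus libraries did not overlap for 4 of 7 members, Lpar6, Gpr132 and Gpr183 lower and Gpr65 higher, against 14.5% of all genes (6.89% lower and 7.6% higher). The members' median log2 fold change was -0.51 in liver and -0.73 in thymus, beside 0.02 and 0.24 over all genes. Since the set was picked from these comparisons, nothing is read from the counts. Without the 2 shallow liver libraries neither liver call held, with log2 fold changes of -1.94 for Lpar6 and -2.93 for Gpr132, and the Gpr132 call ended when any 1 of the 6 liver libraries was left out.

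Bulk libraries cannot tell fewer cells of a type from less RNA per cell. Several sums of marker genes also lay apart between the liver groups, that of the 12 iNKT1 markers among them (107147 to 145842 in cKO liver against 161774 to 173396 in control liver). The 8 B cell markers of 10 that were in the table summed to 1161 to 2082 in cKO liver against 5856 to 8124 in control liver, most of it Ighm, the immunoglobulin mu chain. Without Ighm the other 7 summed to 80.2 to 213 in cKO liver against 482 to 786 in control liver, and Blk was at 0 reads in both. The 8 immature thymocyte markers of 10 in the table, Cd4 among them, summed to 6156 to 8671 in cKO liver against 10293 to 14839 in control liver, with Dntt and Rag1 at 0 reads in both. The 2 endothelial markers of 12 in the table were Pecam1 and Eng, while Cdh5, Kdr, Tek and Vwf were among those absent. The 2 summed to 1.16 to 88.8 in cKO liver, with Eng at 0 reads, against 463 to 671 in control liver. The 8 hepatocyte markers of 10 overlapped (797 to 1683 in cKO liver against 1441 to 1793 in control liver). Among the marker sets with genes in the table, that of endothelial cells thus rested on the fewest, Pecam1 and Eng. In thymus their sum again lay apart, at 0.92 to 68.5 in cKO cells against 71.8 to 301.6 in control cells. With Eng at 0 reads in both, this sum was Pecam1 alone. The B cell markers (1641 to 6242 in cKO thymus, 3507 to 5377 in control thymus) and the immature thymocyte markers (2739 to 4349.9 in cKO thymus, 2388 to 8442 in control thymus) overlapped there. The 6 macrophage markers of 12 in the table summed to 254 to 503 in cKO liver, with none at 0 reads, and to 35.9 to 1189 in control liver, with Adgre1 and C1qc at 0 reads. The 5 dendritic cell markers of 10 summed to 677 to 1808 in cKO liver and 617 to 1573 in control liver. None of the 12 neutrophil markers was in the table. The part of these cells in the receptor values was not tested.

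Liver was then set against thymus over both genotypes, the comparison that did not enter the choice of members. No member passed the test (limma adjusted p 0.12 to 0.89), where 1.39% of all genes were called. For none of the 7 did the 6 liver libraries lie apart from the 6 thymus libraries, as they did for 1.48% of all genes. At an unadjusted limma p under 0.05 there was 1 of 7 members, beside 1862 of the 13058 genes tested. This member was Lpar6, with a log2 fold change of -0.71 ± 0.22 (adjusted p = 0.12). DESeq2 on recovered reads gave Lpar6 nearly the same value, -0.72, with an adjusted p of 0.022, and edgeR called no member. Over the alternatives run, 60 to 599 of all genes were called in this comparison, against 182 by the main test. The other log2 fold changes ran from -0.82 ± 0.62 for Gpr183 and -0.74 ± 0.39 for Gpr34 to 0.47 ± 0.39 for Gpr132, beside a median over all genes of 0.20.

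Within one genotype the tissue comparison shares its libraries with the comparison by which the members were picked, so its values are side-by-side descriptions. In cKO cells Lpar6 differed by -0.82 ± 0.31 between liver and thymus and Gpr174 by -1.01 ± 0.42, and for both the libraries did not overlap. Gpr65 was the member whose cKO liver libraries all lay above the cKO thymus ones, by 0.31 ± 0.45. In control cells the liver libraries of Gpr132 all lay above those of thymus (1.12 ± 0.55), and those of Lpar6 (-0.61 ± 0.31), Gpr183 (-1.85 ± 0.88) and P2ry10 (-0.48 ± 0.60) all lay below. Libraries thus did not overlap for 3 of 7 members in cKO cells, against 16.1% of all genes, and for 4 of 7 in control cells, against 15.4%. By limma no member was called in either genotype, where 0.222% of genes were called in cKO and 0.605% in control cells, and edgeR and DESeq2 also called none. At an unadjusted limma p under 0.05 there were 2 members in cKO cells (Lpar6 and Gpr174) and 0 in control cells. Of the 13058 genes tested, 992 were under that p in cKO cells and 1658 in control cells.

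**Figure D3:**
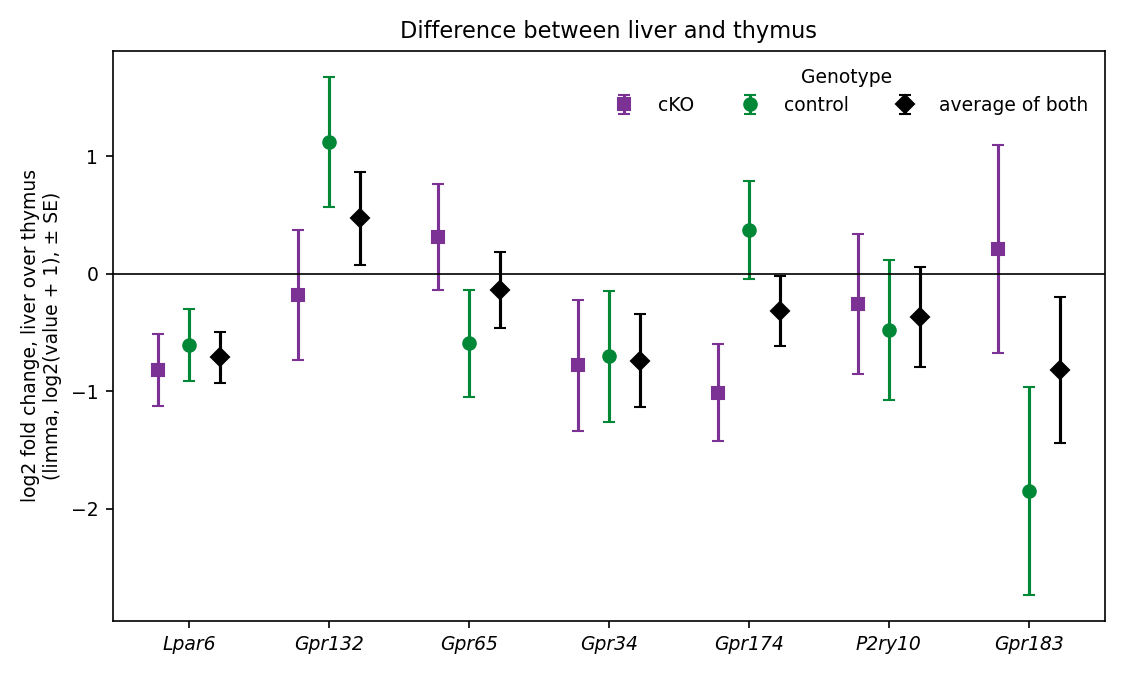
Log2 fold change, liver over thymus, of each receptor gene in cKO cells, in control cells and as the average of both (limma on log2(value + 1), ± SE, 3 libraries a group). Lpar6 lies below 0 in both genotypes (-0.82 and -0.61), while Gpr132 lies at -0.18 in cKO and at 1.12 in control cells.

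Per kb of exon, which allows levels to be set between genes, the leading receptors differed between the groups. In cKO liver Gpr65 had the highest mean level (1464 ± 315 per kb), ahead of Gpr34 (790.2 ± 245) and Lpar6 (329 ± 60.1). Control liver was led by Gpr132 (1510 ± 779) and Lpar6 (1324 ± 215), with Gpr65 at 607 ± 318. Gpr132 led there through library 1 (2409 against 1568 per kb for Lpar6), while Lpar6 was the higher of the pair in libraries 2 and 3 (1243 and 1162 against 1031 and 1088). In cKO thymus Gpr34 (1353 ± 413) and Gpr65 (1161 ± 3.20) came first, and Lpar6 followed at 584 ± 144. In control thymus Lpar6 stood at 2024 ± 409, ahead of Gpr34 (1014 ± 725) and Gpr65 (827 ± 205). Gpr183 had the lowest mean per kb in both liver groups and in cKO thymus, from 98.4 ± 27.3 in cKO liver to 121 ± 97.2 in cKO thymus. Lengths are those of merged exons of all annotated transcripts, so a gene read mainly as a shorter transcript is understated.

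**Figure D4:**
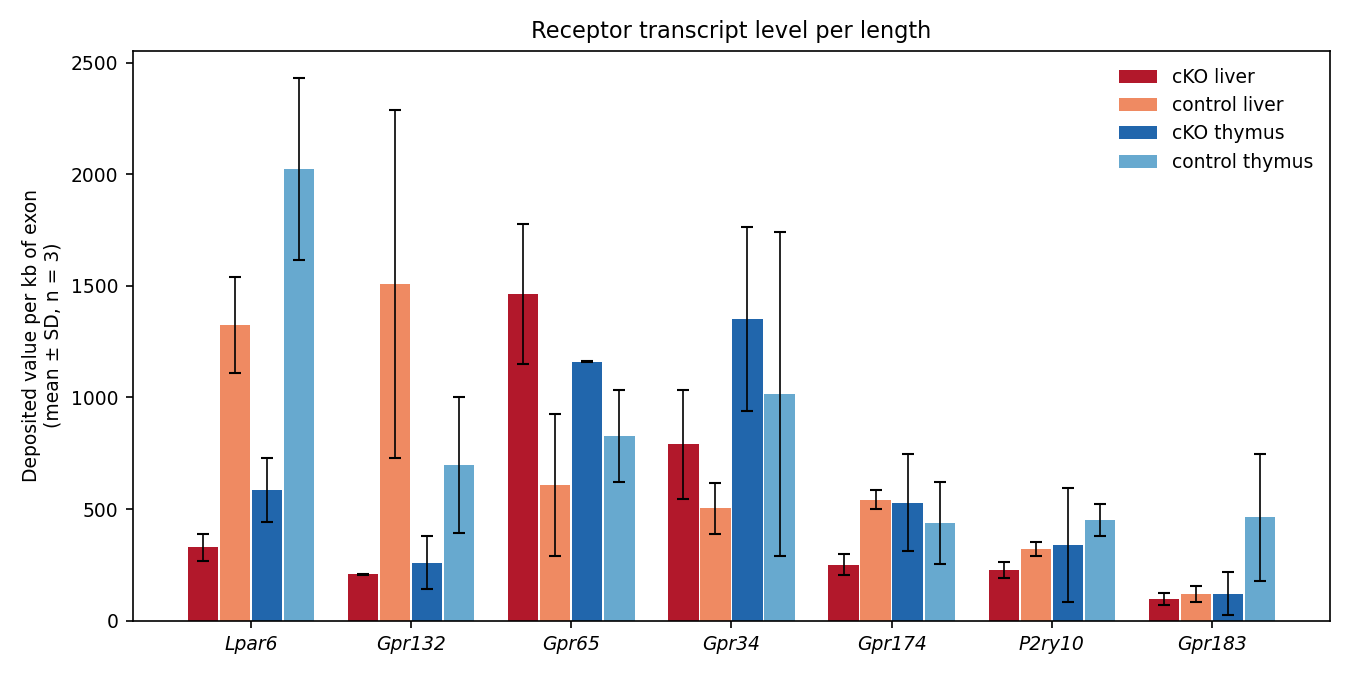
Deposited value per kb of merged exon for each receptor gene in the 4 groups (mean ± SD, n = 3). Gpr65 is highest in cKO liver (1464) and Lpar6 in control thymus (2024).

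For the genes most like Lpar6, Pearson correlations of log2(value + 1) over 12 libraries were taken among 9738 genes with a mean value of at least 50. Among the 5 highest were Rapgef6 (r = 0.97), a guanine nucleotide exchange factor for Rap GTPases, Ifi213 (0.95), of an interferon-inducible family, Ets1 (0.94) and Antxr2 (0.94), a cell surface receptor bound by anthrax toxin. The 99th percentile over all genes compared was 0.80. The libraries fall into 4 groups that differ in genotype and tissue. Lpar6 was picked for its fall in cKO cells, so its correlation with Ets1 over all libraries rests on that same comparison. With the group means removed, the correlation was 0.17 for Ets1, 0.45 for Rapgef6 and -0.32 for Ifi213. Ifi213 stood at 513 ± 129.8 in cKO liver against 3523 ± 366 in control liver, and at 936 ± 102 in cKO thymus against 6545 ± 1947 in control thymus (SD, n = 3 each), the same order of groups as Lpar6.

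For Gpr132 the 5 highest were B4galnt1 (r = 0.89), a ganglioside synthase, Ccdc136 (0.89), Dtx3l (0.88), a ubiquitin ligase, Rassf2 (0.88), a Ras association domain protein, and Rcbtb2 (0.87), where the 99th percentile was 0.72. Within groups these correlations were 0.26 to 0.77. Ccdc136 was near 0 in cKO cells, with means of 0.88 in liver and 0.0015 in thymus. In control cells it was at 171 ± 138 in liver and 255 ± 321 in thymus (SD, n = 3 each). Its correlation thus rests in part on values at the floor. Rassf2 stood at 449 ± 167 in cKO liver against 6886 ± 2329.8 in control liver, and at 1362 ± 600.3 in cKO thymus against 9035 ± 7336 in control thymus. Among the members themselves, over the same 12 libraries and 4 groups, the highest correlation was that of Lpar6 with Gpr132 (r = 0.77). The lowest were those of Gpr65 with Gpr132 (-0.79) and with Lpar6 (-0.64). Lpar6 and Gpr132 were picked for being lower in cKO cells, so these correlations rest on that same comparison. For pairs of members no correlation was taken with the group means removed. Gpr34 was near 0 with Lpar6 (-0.12) and P2ry10 (-0.03).

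**Figure D5:**
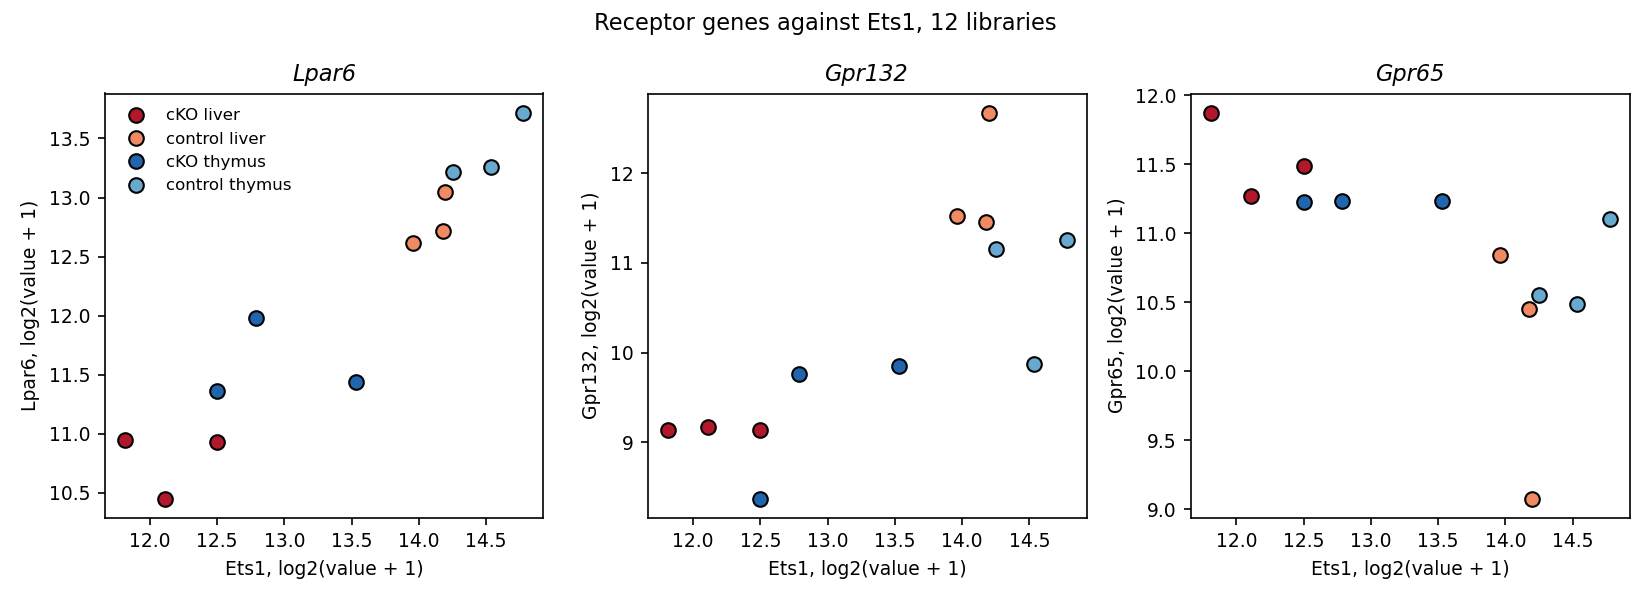
Lpar6, Gpr132 and Gpr65 against Ets1 in the 12 libraries, both axes log2(value + 1), 1 point a library, coloured by group. Lpar6 is high where Ets1 is high (r = 0.94), and no cKO library reaches the Ets1 or Lpar6 level of any control library. Lpar6 was picked for its fall in cKO cells, and with the group means removed r was 0.17.

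The pathway around the receptors was read from 126 listed genes other than the members (related receptors, enzymes that make and break down lysophospholipids and oxysterols, G protein alpha subunits, desensitisation proteins and downstream effectors), of which 92 were in the table and 91 were tested. In cKO against control liver 1 of 91 was called (1.1%, beside 0.505% of all genes). This was S1pr1, the sphingosine 1-phosphate receptor that lets lymphocytes leave thymus and lymph nodes, at 3355 ± 1499 in cKO liver against 310.3 ± 170 in control liver (log2 fold change 3.53 ± 0.60, limma adjusted p = 0.0067). The call was kept in 25 of 27 alternatives, and the adjusted p was 0.084 without cKO liver library 1 and 0.17 without the 2 shallow libraries. In thymus S1pr1 was at 1219 ± 531 in cKO cells against 877 ± 147 in control cells and did not pass (0.38 ± 0.60, adjusted p = 0.83).

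In cKO against control thymus 1 of 91 was called (1.1%, beside 0.636%). It was S1pr5, another sphingosine 1-phosphate receptor, known for the exit of natural killer cells from bone marrow and lymph nodes, at 1633 ± 1052 in cKO thymus against 63.8 ± 104 in control thymus (log2 fold change 6.97 ± 1.53, limma adjusted p = 0.043). The call rested on few reads in control cells (0 in the lowest library) and was kept in 10 of 27 alternatives, with adjusted p from 0.0019 to 0.66. In liver S1pr5 was at 1813 ± 418 in cKO cells against 30.6 ± 28.7 in control cells (6.37 ± 1.53, adjusted p = 0.065). The lysophospholipid receptors outside the set comprised 8 tested genes of 13 listed, and apart from S1pr1 in liver and S1pr5 in thymus none passed between the genotypes.

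Between liver and thymus 3 of 91 were called, all lower in liver (3.3%, beside 1.39% of all genes). Among them, Rgs2, which shortens G protein signalling, was at 129 ± 179 in cKO liver and 633 ± 313 in control liver, against 1543 ± 961 in cKO thymus and 5244 ± 4295 in control thymus (-3.78 ± 0.72, limma adjusted p = 0.0093). Lpcat4, an acyltransferase that turns lysophospholipids back into phospholipids, fell by 1.02 ± 0.24 on the log2 scale (adjusted p = 0.035), and that call was kept in 14 of 26 alternatives. Control thymus libraries 1 and 2 had the highest ribosomal RNA shares of the thymus libraries (30.0% and 34.2% mitochondrial ribosomal RNA). Shares in the liver libraries ran from 23.2% (cKO library 2) to 33.1% (control library 1). Without those 2 thymus libraries the log2 fold change was -3.15 for Rgs2 and -0.92 for Lpcat4. Rgs2 kept the call in 24 of 26 alternatives, losing it with those 2 libraries left out and without a variance trend (limma adjusted p = 0.077).

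By limma, none of 24 tested enzymes of lysophospholipid synthesis and breakdown, 9 of oxysterol synthesis, breakdown and binding, 11 G protein alpha subunits or 12 cyclic AMP effectors passed between the genotypes in either tissue. Gna13, the G13 alpha subunit, had log2 fold changes of -0.25 ± 0.35 in liver and -0.16 ± 0.35 in thymus (limma adjusted p = 0.999 and 0.89). Osbpl3, an oxysterol-binding protein relative, had 1.26 ± 0.36 in liver and 1.53 ± 0.36 in thymus (adjusted p = 0.14 and 0.060), and DESeq2 called it in both tissues. Of the 16 desensitisation genes tested, none passed between the genotypes. Rgs18 passed between control liver and control thymus (adjusted p = 0.046), on 493 reads over control liver and 1 read over control thymus, and kept its call in 7 of 23 alternatives.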

How the data were processed

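RNA-seq was done on 12 libraries of sorted mouse iNKT1 cells, 3 in each of 4 groups, made with an Ovation Ultralow kit per the labels. Per the submitters' processing notes the tools included HTSeq 0.6.1, Trimmomatic 0.33, STAR, DESeq2 and TopHat2 2.1.0, with build mm10, in no stated order; strand and multi-mapping settings are not given in the sources used here. The authors deposited 1 table of 14004 Ensembl genes, used as a signal adjusted for library size. Their steps match a negative binomial quantile adjustment of whole reads (fitted dispersion 1.42), and its inversion gave whole reads, to within 0.1, for 95.7% of values (81.3% in the library with the lowest share). This step is inferred from the values. The inverted reads gave the depth and, in edgeR 4.0.16 and DESeq2 1.42.0, alternative tests.

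Testing covered the 13058 genes that reached a value of 10 in 3 or more libraries (946 left out). A limma 3.58.1 model (R 4.3.3) of log2(value + 1) had 4 group means and a variance trend (8 residual and 10.7 prior degrees of freedom), two-sided, with Benjamini-Hochberg adjustment at 0.05. The plan named edgeR for whole counts; limma was used because the values are an adjusted signal. The limma procedure was also run on simulated counts, with an outcome not reported here. Those counts were scaled by library size, without the quantile adjustment inferred for the deposited values. Symbols and positions came from GENCODE M21 by Ensembl identifier (13363 matched, 95.4%; 641 did not). Promoter sequences are from RefSeq. The members, gene lists and tests were chosen with earlier results of these data known. Named genes were all members and Ets1; of each pathway list, called genes (up to 4) and the 2 most abundant others, of which a part is printed; the 5 genes most correlated with Lpar6 or Gpr132, without predicted genes, pseudogenes and antigen receptor segments; neighbours and overlapping genes of members, and markers, were added for context. Some genes that these rules pick are not reported here.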

Additional observations from a re-analysis of the deposited data

How the results depend on the processing

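Up to 27 alternatives were run for each comparison (scaling, pseudocount, filter, variance model, tool and left-out libraries). The log2 fold changes of Lpar6 kept their sign in all of them, between -2.10 and -1.85 in liver and between -2.06 and -1.62 in thymus, as did those of Gpr132 in liver (-2.96 to -2.34). The count of members called in thymus (1) became 0 without a variance trend, with only the 6 libraries compared, and without control thymus libraries 1 and 2 together, and ranged from 0 to 1 when 1 library was left out. In liver the count (2) became 0 without a variance trend and 0 without the 2 libraries of lowest depth, ranged from 1 to 2 when 1 library was left out, and was 3 with array quality weights, which added Gpr174. Between tissues, averaged over genotypes, DESeq2 called 1 member (Lpar6) where limma called 0. The cause was not tested. The number of all genes called also changed with the setting, from 9 to 620 in liver and from 60 to 599 between tissues. Nothing is read from the changes in member counts. Differences near 0 changed sign. For Gpr65 between tissues the average was 0.051 with quantile normalization, and ranged from -0.32 to 0.12 with 1 library left out (0.12 without control liver library 1). For Gpr174 in control cells it was -0.27 without control thymus libraries 1 and 2. In cKO cells Gpr132 was at 0.0048 with array weights and ranged from -0.66 to 0.081 with 1 library left out (0.081 and 0.038 without cKO thymus libraries 1 and 2). P2ry10 ranged from -0.92 to 0.34 (0.34 without cKO thymus library 2). Gpr183 was at -0.28 with edgeR and -0.27 with DESeq2, and ranged from -0.78 to 0.90 (-0.78 without cKO thymus library 3 and -0.0052 without cKO liver library 1). Genes called over the whole table ranged from 0 to 619 in thymus (83 as reported), 9 to 620 in liver (66), 60 to 599 between tissues (182), 12 to 478 in control cells (79) and 3 to 263 in cKO cells (29). Pathway genes other than the members numbered 0 to 5 called in thymus (1 as reported), 0 to 8 in liver (1) and 1 to 5 between tissues (3). TMM scaling moved the median of all genes in thymus to 0.0031, against 0.24 as deposited, the Gpr65 thymus value to 0.25 and the Gpr174 thymus value to near 0. Correlations of the deviations from group means were small between same-numbered libraries (18 pairs, r from -0.096 to 0.080). The highest were those of cKO with control liver (0.072 to 0.080), and 8 of 12 libraries correlated best with their own number. With the replicate number as a block the members called remained 1 in thymus, 2 in liver and 0 between tissues. In the 2 shallow libraries low values rest on few reads, 35 for Gpr183 in cKO liver library 2.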

Other observations

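Expressed as shares of the summed level per kb of the 7 receptors, the set had a different make-up in the genotypes. Gpr65 made up 43.5% ± 3.29 in cKO liver against 12.97% ± 7.63 in control liver, and 27.6% ± 6.56 in cKO thymus against 14.3% ± 2.68 in control thymus (SD, n = 3 each). Lpar6 made up 9.78% ± 0.54 in cKO liver against 26.8% ± 1.04 in control liver, and 13.6% ± 2.37 in cKO thymus against 35.4% ± 8.21 in control thymus. Gpr132 made up 6.37% ± 1.41 in cKO liver against 29.7% ± 11.1 in control liver. Gpr34 made up 23.2% ± 4.29 in cKO liver against 10.3% ± 2.76 in control liver, and 30.7% ± 4.09 in cKO thymus against 15.6% ± 8.26 in control thymus. The lysophosphatidylserine receptor P2ry10 held 6.82% ± 0.96 in cKO liver and 6.68% ± 1.41 in control liver. Shares sum to a whole, so a lower share of one receptor raises the others, and the shares rest on the same comparison that picked the members. The summed level of all 7 per kb was 3368 ± 653 in cKO liver against 4927 ± 651 in control liver, and 4347 ± 921 in cKO thymus against 5915 ± 1652 in control thymus.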
